A study of Mus musculus with 8 samples.

Results

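The 34 genes described here serve the integrated stress response, the supply of amino acids and protein folding in the endoplasmic reticulum (ER). They were taken as a list of gene symbols, and all 34 were found among the 52636 genes of the count tables. They were measured by RNA-seq in 8 samples of malignant mesothelioma from mice, a cancer that grows from the lining of the chest or abdomen. The triple knockout group holds 6 samples, labelled with loss of Bap1, Nf2 and Cdkn2a, and the double knockout group holds 2 samples, labelled with loss of Nf2 and Cdkn2a. By the labels every sample carries the Nf2 and Cdkn2a lesions, and the groups differ in Bap1. Nf2 encodes merlin, which restrains growth through the Hippo pathway, the products of Cdkn2a halt the cell cycle, and the product of Bap1 removes ubiquitin from histone H2A. The study's title speaks of conditional mouse models. The sources used here do not give the way the alleles were deleted, the strain, the age and sex of the mice, or whether samples came from separate mice. The p-values therefore measure the spread between these samples. The labels describe cells grown in RPMI medium with serum, glutamine and insulin.

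Cells respond to a shortage of amino acids, or to unfolded protein in the ER, by phosphorylating the translation factor eIF2, which slows protein synthesis in general but favours translation of the transcription factor ATF4. ATF4 then activates genes for amino acid synthesis and uptake and, when stress lasts, the transcription factor CHOP, encoded by Ddit3. In the ER the sensors PERK (Eif2ak3), IRE1 (Ern1) and ATF6 detect unfolded protein, and ATF6 and spliced XBP1 activate chaperone genes. ATF4 is controlled largely at translation and XBP1 by splicing, and gene-level read counts show neither step.

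The DNA words through which these factors are known to act were searched in the promoters of the genes. RefSeq promoter windows on GRCm38.p6, with 250 bases before and 50 bases after each gene's start, were found for 28 of the 34 genes, all but Atf6, Cth, Manf, Slc1a5, Slc7a3 and Slc7a5. The ER stress element, CCAAT and CCACG separated by 9 bases on either strand, was found in 4 of the 7 chaperone and cofactor genes with a window, Hspa5, Hsp90b1, Dnajc3 and Creld2. It was found in 0.137% of all 27025 genes with a window. A related element, ATTGG and CCACG separated by 1 base on either strand, was found in Herpud1 and in 0.0444% of all genes. The core of the element bound by ATF4 and its partners, TGATGNAA on either strand, was found in Asns, Chac1, Herpud1, Slc1a4, Trib3 and Vldlr, 6 of the 28 genes, and in 4.51% of all genes. The word TGACGTGG, a core bound by XBP1 and ATF6, was found in 0 of the 28 and in 0.714% of all genes. The elements with CCACG differ only in the first part and its distance, and no 2 matches of different elements overlapped in these genes. The 250 bases before the start are shown for the chaperones Hspa5 and Hsp90b1, for Herpud1, which held the ATF4-type core and the related element, and for the ATF4 targets Asns and Chac1, with each matched element in capitals:
Hspa5 (chr2:34771840-34772089, plus strand): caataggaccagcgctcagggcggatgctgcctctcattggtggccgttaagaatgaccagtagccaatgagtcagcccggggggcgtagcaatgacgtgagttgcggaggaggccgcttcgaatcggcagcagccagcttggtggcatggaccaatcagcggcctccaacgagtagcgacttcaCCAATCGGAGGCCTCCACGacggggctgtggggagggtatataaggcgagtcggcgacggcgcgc
Hsp90b1 (chr10:86705445-86705694, minus strand): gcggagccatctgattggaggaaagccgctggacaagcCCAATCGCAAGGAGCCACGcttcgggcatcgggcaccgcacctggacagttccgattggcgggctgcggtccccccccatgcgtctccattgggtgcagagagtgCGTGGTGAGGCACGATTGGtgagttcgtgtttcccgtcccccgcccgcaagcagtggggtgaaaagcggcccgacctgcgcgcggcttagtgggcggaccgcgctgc
Herpud1 (chr8:94386179-94386428, plus strand): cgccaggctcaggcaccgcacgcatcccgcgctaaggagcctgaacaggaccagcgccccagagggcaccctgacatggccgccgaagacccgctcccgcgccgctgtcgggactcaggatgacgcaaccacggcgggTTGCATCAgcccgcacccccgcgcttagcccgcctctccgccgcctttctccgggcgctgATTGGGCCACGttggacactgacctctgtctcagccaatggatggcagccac
Asns (chr6:7693210-7693459, minus strand): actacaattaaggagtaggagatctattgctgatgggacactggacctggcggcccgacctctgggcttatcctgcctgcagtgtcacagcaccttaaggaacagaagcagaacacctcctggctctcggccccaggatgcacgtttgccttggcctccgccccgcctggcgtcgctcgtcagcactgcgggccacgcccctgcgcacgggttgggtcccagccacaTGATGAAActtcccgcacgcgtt
Chac1 (chr2:119350992-119351241, plus strand): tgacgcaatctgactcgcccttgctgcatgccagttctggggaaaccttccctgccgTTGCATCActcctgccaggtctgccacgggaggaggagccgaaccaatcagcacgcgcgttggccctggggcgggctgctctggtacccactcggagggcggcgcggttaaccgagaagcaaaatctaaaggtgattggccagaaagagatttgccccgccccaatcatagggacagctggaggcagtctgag
In Hspa5 the element began 65 bases before the start. Hsp90b1 held 2, which began 212 bases before the start on the gene's strand and 107 bases before it on the other. In Herpud1 the element of the ATF4 type, read on the other strand, began 112 bases before the start, and the related element with ATTGG began 52 bases before it. The Asns element began 23 bases before the start, and that of Chac1, read on the other strand, 193 bases before it. A match of letters does not show that a factor is bound there.

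Depth ran from 26847202 to 32082535 counts per sample. Levels are given as CPM, counts scaled to a common library size with TMM factors, and are comparable between samples for a given gene but not between genes of different length. Double sample 1 stood apart from the other libraries. Its scaling factor was 0.771, against 0.994 to 1.10 in the other samples, its mitochondrial share of counts was 4.04%, against 1.17% to 2.33%, and the correlation of its levels, log2(CPM + 0.1), with those of the triple samples across genes was 0.809 to 0.882, against 0.908 to 0.933 for double sample 2. The 14 adult skeletal muscle markers summed to 131.5 to 15340 CPM in the triple samples and to 79660 and 2694 CPM in double samples 1 and 2, and none was at 0 in all samples. The 14 embryonic muscle markers summed to 58.3 to 1143 CPM in the triple samples and to 17250 and 3852 CPM in the double samples. By the test described below, 13 of them and 1 of the adult muscle markers were called lower, against 5.41% of all genes tested. The 14 leukocyte markers summed to 1673 to 2508 CPM in the triple samples and to 902.5 and 1726 CPM in the double samples. Of these, 2 were called higher, against 2.94% of all genes tested. Such transcripts were counted although the labels describe cultured cells, so it is not clear whether cultures or tissue were sequenced. The 10 mesothelial markers summed to 54.9 to 810 CPM in the triple samples and to 288 and 1346 CPM in the double samples. Among them, the keratin gene Krt8 had 1.23 to 179 CPM in the triple samples, against 16.5 and 799 CPM in double samples 1 and 2. Krt18 had 6.84 to 71.2 CPM in the triple group, against 10.7 and 203 CPM in the double group. Msln stood at 12.6 to 194 CPM in the triple samples and at 251 and 342 CPM in the double samples, Calb2 was at or near 0 in all samples, and Wt1, Upk3b and Muc16 were below 2 CPM in all but triple sample 3, where they had 33.2, 173 and 95.7 CPM. In bulk samples such as these, fewer cells of a type and less RNA per cell cannot be told apart. The part of these cell types in the differences below was not tested. Transcripts of the deleted genes were still counted in every sample. Bap1 had 43.1 to 72.1 CPM in the triple samples and 105.5 and 71.2 CPM in the double samples. It averaged 58.5 ± 9.55 CPM in triple samples and 88.4 ± 24.3 CPM in double samples (SD, n = 6 and 2), which did not pass edgeR's quasi-likelihood test (log2 fold change -0.60, adjusted p = 0.122). Nf2, labelled as lost in both groups, had 62.7 to 100 CPM in the triple samples and 165 and 109 CPM in the double samples. Its log2 fold change was -0.64 (adjusted p = 0.103, edgeR). All triple samples were below both double samples for Nf2, against 11.4% of all genes tested. Cdkn2a had 4.05 to 8.76 CPM in the triple samples and 1.54 and 5.16 CPM in the double samples (log2 fold change 0.87, adjusted p = 0.306, edgeR). Which exons were deleted is not stated, so counts over the whole gene do not check the labels.

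Between the groups, the 34 genes showed no common shift. Their median log2 fold change, triple over double, was -0.03, against 0.02 over all 17709 genes tested, with 16 positive and 18 negative. None was called higher and 3 were called lower, the leucine transporter gene Slc7a5, the ER stress sensor gene Atf6 and the mTORC1 inhibitor gene Ddit4, by edgeR's quasi-likelihood test with a Benjamini-Hochberg adjusted p under 0.05. The 3 are 8.82% of the genes, and 8.35% of all genes tested were called, 2.94% higher and 5.41% lower, so the share called among these genes was close to the background. Without adjustment 12 of the 34 and 4947 of all 17709 genes had p under 0.05. All triple samples lay above both double samples for 3 genes (Psph, Eif2ak3 and Manf), against 12.8% of all genes, and below both for 3 genes (Slc3a2, Slc7a5 and Atf6), against 11.4% of all genes. Without double sample 1, which leaves 1 double sample, these calls did not hold, and fewer genes were called over all genes as well. The log2 fold changes were then -1.18 for Slc7a5, -0.82 for Atf6 and -0.63 for Ddit4. Without double sample 2, 3 of the 34 were called higher and 8 lower, and 29.5% of all genes were called.

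**Figure D1:**
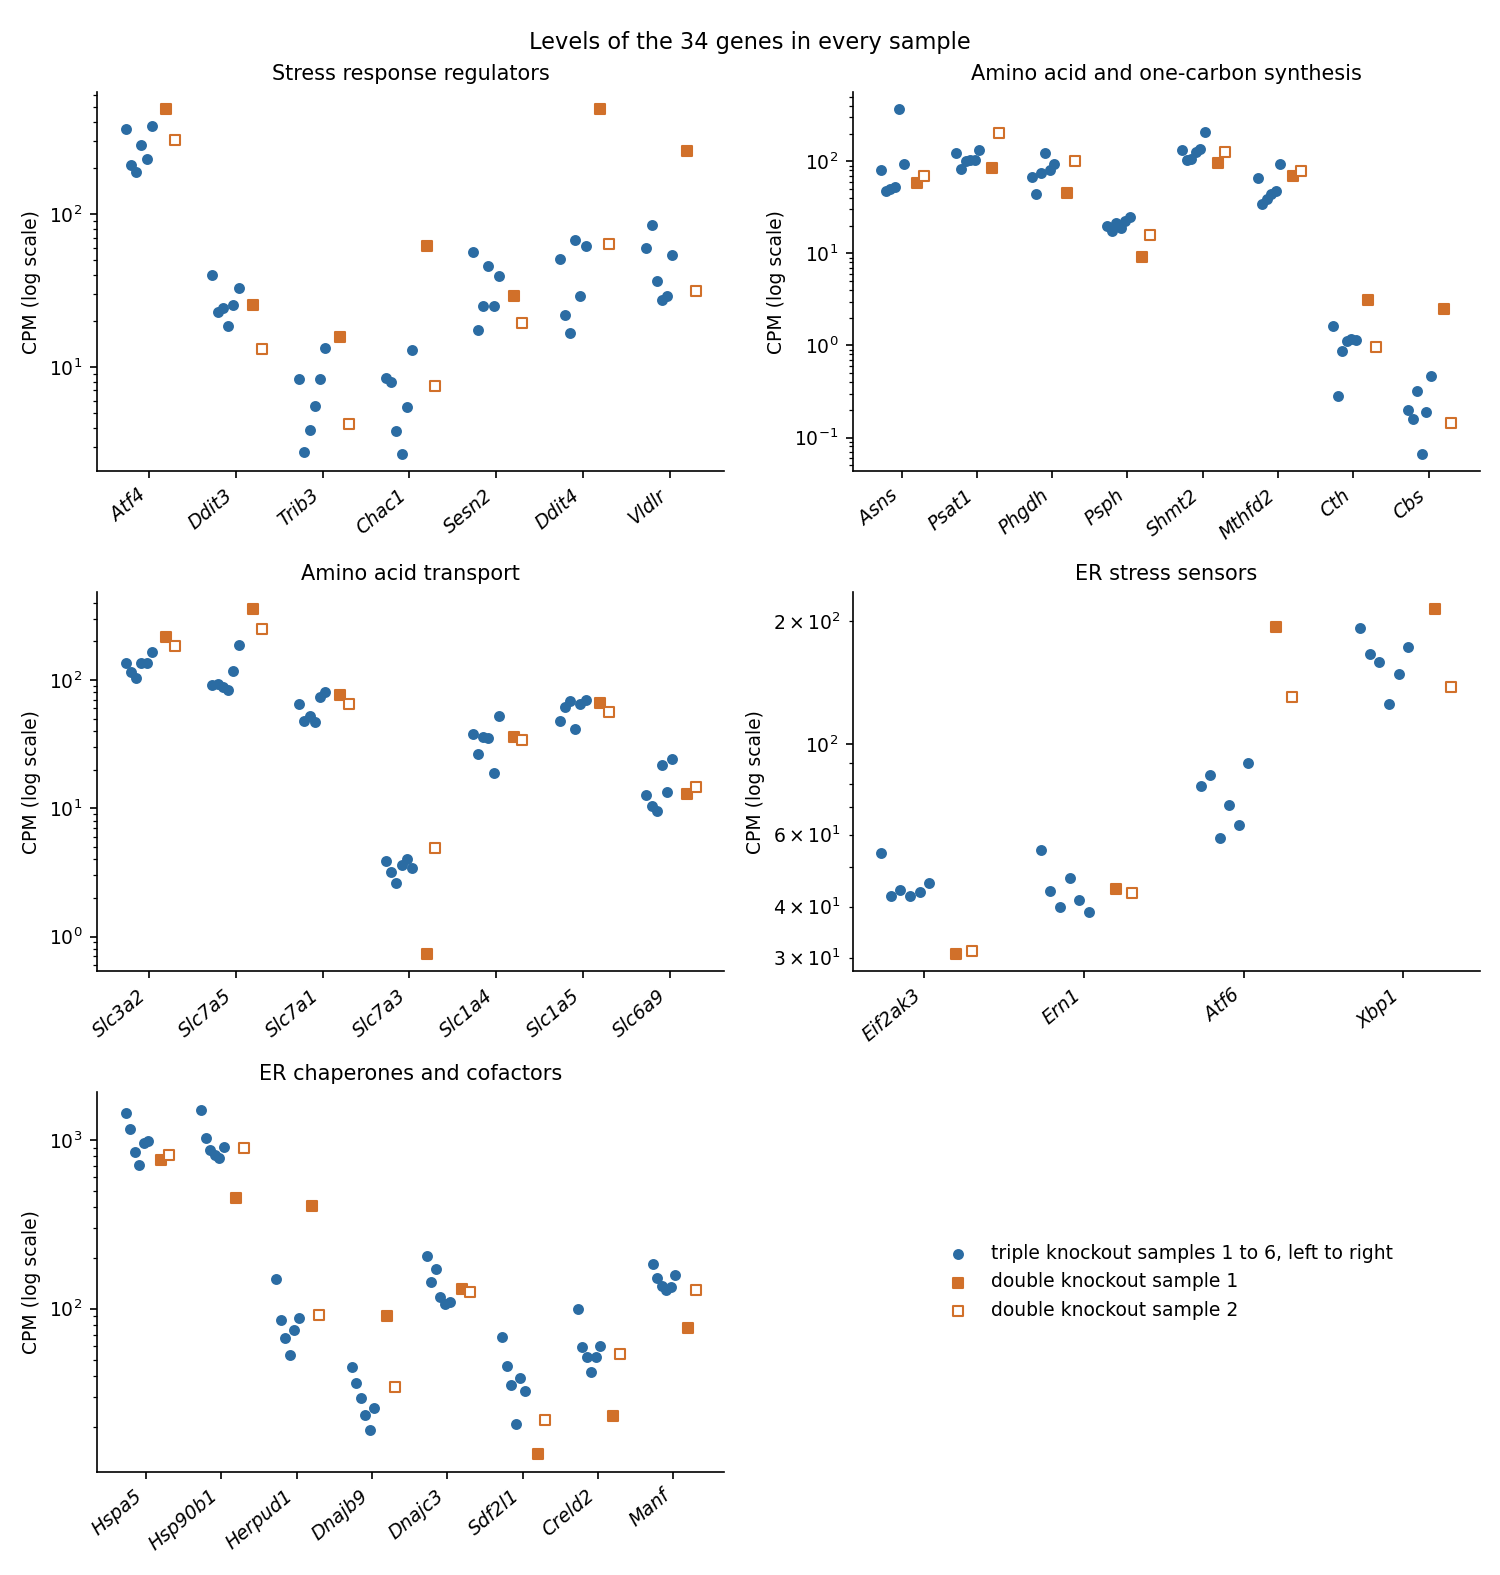
Level of each of the 34 genes in every sample, in CPM on a log axis, by class. Circles are triple knockout samples 1 to 6 from left to right, filled squares double sample 1 and open squares double sample 2. The filled square stands far above the rest for Ddit4 (486 CPM), Vldlr (259 CPM), Chac1 (62.0 CPM) and Herpud1 (406 CPM).

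Of the 7 regulators and signalling targets of the stress response, Ddit4 was called lower in the triple samples and none was called higher. The median log2 fold change of the class was -0.52. Double sample 1 had more transcript than double sample 2 for all 7 genes, and more than 2-fold for 4 of them (57.1%, against 17.9% of all genes tested). The level of double sample 2 lay within the range of the triple samples for 6 of the 7 (85.7%, against 58.9% of all genes tested). For the chaperone genes that share was 87.5%. Atf4 itself stood at 190 to 375 CPM (median 256) in the triple samples and at 484 and 305 CPM in double samples 1 and 2. The groups overlapped, and the log2 fold change was -0.52 ± 0.31 (SE, adjusted p = 0.301, edgeR's quasi-likelihood test). Ddit3, which encodes CHOP, stood at 18.6 to 39.8 CPM (median 24.7) in the triple samples and at 25.4 and 13.0 CPM in the double samples, a log2 fold change of 0.51 ± 0.35 (adjusted p = 0.374, edgeR). Atf4 and Ddit3 thus had differences of opposite sign, and neither passed the test.

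Ddit4 (chromosome 10, 59949669 to 59951834, minus strand, GRCm38), whose product REDD1 inhibits mTORC1 under stress, had 16.8 to 67.9 CPM (median 39.9) in the triple samples, against 486 and 63.7 CPM in double samples 1 and 2. Only double sample 1 lay above the triple range. The means were 41.3 ± 21.7 CPM in triple samples and 275 ± 298 CPM in double samples (SD, n = 6 and 2), and the log2 fold change was -2.73 ± 0.68 (SE, adjusted p = 0.0437, edgeR). Without double sample 1 it was -0.63 with an adjusted p of 0.757. Among samples that share the description code SN930 (double sample 1 and triple samples 4, 5 and 6) it was -3.18 with an adjusted p of 0.0369, and among samples of the other codes -1.11 with an adjusted p of 0.538 (edgeR). The call was also lost without any single triple sample, with adjusted p-values of 0.0602 to 0.0849.

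Chac1, whose product breaks down glutathione, followed the same pattern, with 2.69 to 12.8 CPM (median 6.67) in the triple samples, against 62.0 and 7.44 CPM in the double samples. Its log2 fold change was -2.34 ± 0.70 (adjusted p = 0.0724, edgeR) with 8 samples and -0.13 without double sample 1. Vldlr, a lipoprotein receptor gene induced by ATF4, had 27.6 to 85.3 CPM in the triple samples, against 259 and 31.4 CPM in the double samples. Its sign turned, with a log2 fold change of -1.57 over 8 samples and 0.64 without double sample 1. Trib3, a pseudokinase gene that feeds back on ATF4, had 2.76 to 13.3 CPM in the triple samples and 15.7 and 4.22 CPM in the double samples. It turned in the same way, with a log2 fold change of -0.51 over 8 samples and 0.72 without double sample 1. Sesn2, which encodes a leucine sensor of the mTORC1 pathway, had 17.3 to 56.6 CPM in the triple samples and 29.1 and 19.2 CPM in the double samples. Both double samples lay within the triple range, and the log2 fold change was 0.53 ± 0.45 (adjusted p = 0.462, edgeR).

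**Figure D2:**
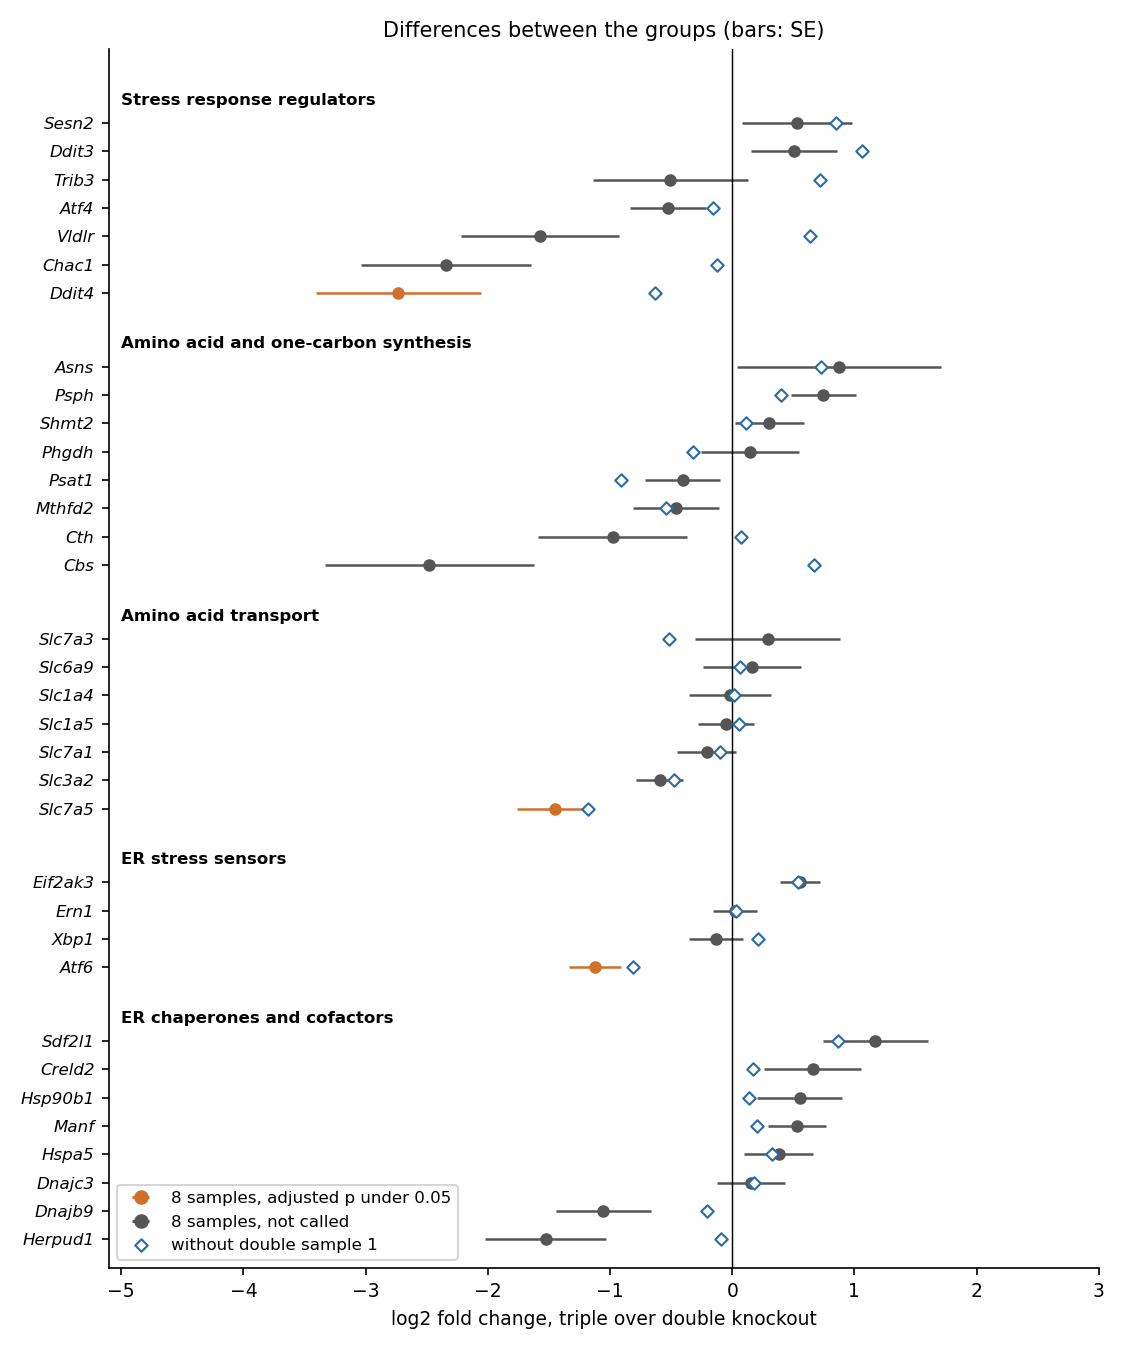
Log2 fold change, triple over double knockout, of the 34 genes by class. Filled circles with bars show the value and its SE over 8 samples (orange where the adjusted p is under 0.05), and open diamonds the value without double sample 1. The diamonds of Ddit4 (-0.63), Chac1 (-0.13) and Herpud1 (-0.09) lie far from their circles (-2.73, -2.34 and -1.53), and those of Slc7a5 (-1.18) and Atf6 (-0.82) lie near theirs (-1.45 and -1.12).

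None of the 8 genes of amino acid and one-carbon synthesis was called. Their median log2 fold change was -0.13, with 4 positive and 4 negative. Phgdh, Psat1 and Psph encode the successive enzymes that make serine from a glycolytic intermediate. Phgdh had 44.1 to 125 CPM (median 77.6) in the triple samples and 45.8 and 101 CPM in the double samples. Psat1 had 82.4 to 134 CPM (median 103) in the triple samples and 83.7 and 201 CPM in the double samples. For both genes double sample 2 had over 2-fold the level of double sample 1, so the difference within the double group was wider than that between group means. Psph had 17.7 to 24.9 CPM (median 20.8) in the triple samples, against 9.19 and 15.8 CPM in the double samples. All 6 triple samples were higher, with a log2 fold change of 0.75 ± 0.26 that did not pass the test (adjusted p = 0.111, edgeR). Psph shares 10.4% of its exon length with Cct6a on the opposite strand, and the sources used here do not say whether counting used strand. Cct6a had 6959 to 9704 counts per sample, against 227 to 748 for Psph.

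Shmt2 and Mthfd2 encode consecutive mitochondrial enzymes of the folate pathway that uses the one-carbon unit of serine. Shmt2 had 103 to 209.5 CPM (median 130) in the triple samples and 95.8 and 125 CPM in the double samples, a log2 fold change of 0.30 ± 0.28 (adjusted p = 0.506, edgeR). Mthfd2 had 34.5 to 92.6 CPM (median 46.4) in the triple samples and 70.2 and 78.5 CPM in the double samples, a log2 fold change of -0.46 ± 0.35 (adjusted p = 0.420, edgeR). These consecutive enzymes differed in sign, with overlapping groups for each. Cth and Cbs, which encode the enzymes that turn homocysteine into cysteine, were counted at very low levels. Cth had 0.285 to 1.63 CPM in the triple samples and 3.12 and 0.975 CPM in the double samples. Cbs had 43 counts in all over the triple samples and 62 and 4 counts in double samples 1 and 2, so its log2 fold change of -2.48 ± 0.86 (adjusted p = 0.105, edgeR) rested on few reads in double sample 1. Without that sample it was 0.67.

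Asns, which encodes asparagine synthetase, stood out in triple sample 5. It had 79.9, 47.6, 50.4, 53.2, 368 and 92.8 CPM in triple samples 1 to 6, and 57.5 and 68.6 CPM in double samples 1 and 2. Triple sample 5 was thus 6.92-fold above the median of the other triple samples, while both double samples lay within the range of those others. The log2 fold change between the groups was 0.87 ± 0.84 (adjusted p = 0.517, edgeR), and 0.04 without triple sample 5. No other gene of the class had its highest triple level in that sample. Genes beside Asns on chromosome 6 (GRCm38; Asns at 7675169 to 7693254, minus strand) were also high in triple sample 5. In a window from Asns to 18 Mb, chosen after the values were seen, 25 genes had a mean of at least 5 CPM in the triple samples, Asns left out. Their median ratio of triple sample 5 to the median of the other triple samples was 1.93, and 16 of them (64%) had a ratio over 1.5. The same median was 0.894 for the 18 genes before Asns, 1.14 for the 542 genes beyond 18 Mb and 1.03 over all 11755 genes at that level, of which 11.2% had a ratio over 1.5. Triple sample 5 had the highest triple level for 10 of the 25 (40%), against 36.9% of the genes beyond 18 Mb and 22.7% of all. Mios, for example, had 47.6 CPM in triple sample 5, against 20.9 to 27.3 CPM in the rest of the triple group, and Phf14 had 134 CPM against 43.4 to 68.3 CPM. Further along the window Met, which encodes the receptor of hepatocyte growth factor, had 3211 CPM in triple sample 5, but 6629 CPM in triple sample 4 and 5181 CPM in triple sample 1, where Asns stood at 53.2 and 79.9 CPM. The other 3 triple samples had 182 to 619 CPM of Met, and the double samples 59.9 and 235 CPM. The nearby genes Tes, Cav1, Capza2, St7 and Wnt2 were likewise highest in triple sample 4, where Tes had 8876 CPM, against 630 CPM in triple sample 5. They too were higher in triple sample 1 than in triple sample 5. Met and these nearby genes are among the 16 with a ratio over 1.5, because the ratio is to a median. DNA copy number was not measured in these data.

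**Figure D3:**
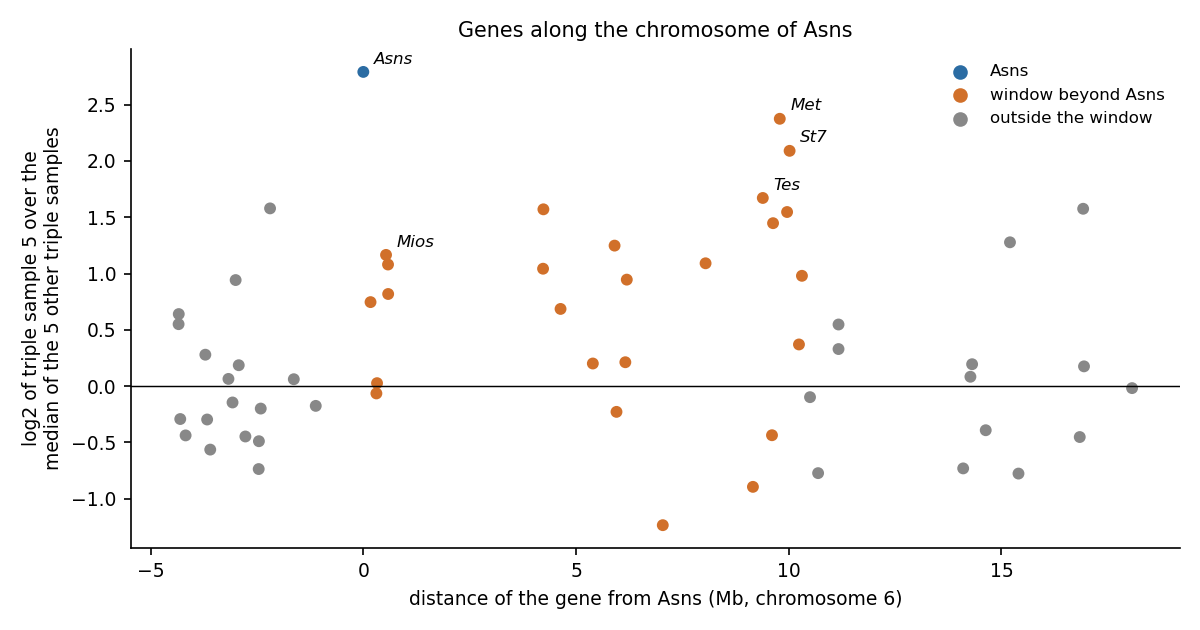
Ratio of triple sample 5 to the median of the other triple samples (log2, vertical axis) for genes of at least 5 CPM along chromosome 6, by distance from Asns in Mb (horizontal axis). Orange points are the 25 genes of the window beyond Asns, with a median ratio of 1.93. Asns, in blue, has the highest ratio shown, 6.92.

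Of the 7 transporter genes, Slc7a5 was called lower in the triple samples and none was called higher. The median log2 fold change of the class was -0.05, and 5 of the 7 were negative. Slc7a5 and Slc3a2 encode the light and heavy chain of LAT1, which imports leucine and other large neutral amino acids in exchange for glutamine, and both were below the 2 double samples in all 6 triple samples. Slc7a5 (chromosome 8, 121881150 to 121907694, minus strand) had 91.7, 92.6, 88.2, 84.1, 117 and 187 CPM in triple samples 1 to 6, against 355 and 248 CPM in double samples 1 and 2. The means were 110 ± 39.4 CPM in triple samples and 301.5 ± 75.6 CPM in double samples (SD, n = 6 and 2), and the log2 fold change was -1.45 ± 0.31 (SE, adjusted p = 0.0282, edgeR). The size of the difference was similar among samples of code SN930 (-1.44) and of the other codes (-1.46), where it did not pass the test (adjusted p = 0.110 and 0.122, edgeR). Without double sample 1 it was -1.18 with an adjusted p of 0.200, and without each of triple samples 1 to 5 the adjusted p was 0.0533 to 0.0643. Slc3a2 had 104 to 166 CPM (median 137) in the triple samples, against 217 and 184 CPM in the double samples. Its log2 fold change of -0.59 ± 0.19 did not pass the test (adjusted p = 0.0904, edgeR).

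The other 5 transporter genes had overlapping groups and adjusted p-values of 0.594 to 0.976 (edgeR). Slc7a1, for cationic amino acids, had 47.4 to 80.3 CPM in the triple samples and 76.1 and 65.1 CPM in the double samples. Slc1a4, which encodes the neutral amino acid exchanger ASCT1, had 18.9 to 52.8 CPM in the triple samples and 36.0 and 34.01 CPM in the double samples. Slc1a5, which encodes its relative ASCT2, had 41.8 to 70.3 CPM in the triple samples and 66.0 and 56.6 CPM in the double samples. Their log2 fold changes were -0.02 ± 0.34 and -0.05 ± 0.23 (SE), with signs that turn under upper-quartile scaling. Slc6a9, a glycine transporter gene, had 9.60 to 24.3 CPM in the triple samples and 12.8 and 14.7 CPM in the double samples. Slc7a3, also for cationic amino acids, had 2.63 to 3.99 CPM in the triple samples, against 0.729 and 4.91 CPM in the double samples. The double samples lay on either side of the triple range for Slc7a3 and within it for the other 4. Slc6a9 shares 27.8% of its exon length with Ccdc24, which had at most 13 counts in a sample. It shares 0.895% with B4galt2, which had 445 to 2585 counts.

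Of the 4 genes of the ER stress sensors, Atf6 was called lower in the triple samples, Eif2ak3 was higher in all 6 triple samples without passing the test, and Ern1 and Xbp1 had overlapping groups. Atf6 (chromosome 1, 170704674 to 170867771, minus strand), whose product is cut in the Golgi to release a transcription factor for chaperone genes, had 79.2, 83.9, 58.9, 71.1, 63.4 and 90.1 CPM in triple samples 1 to 6, against 194 and 130.5 CPM in double samples 1 and 2. The means were 74.4 ± 12.1 CPM in triple samples and 162 ± 44.6 CPM in double samples (SD, n = 6 and 2), with no overlap and a log2 fold change (± SE) of -1.12 ± 0.21 (adjusted p = 0.0197, edgeR). It remained past the threshold without each single triple sample (adjusted p of 0.0287 to 0.0440, edgeR) and was -0.82 with an adjusted p of 0.163 without double sample 1. Among samples of code SN930 it was -1.35, and among those of the other codes -0.83 (adjusted p = 0.0472 and 0.302, edgeR).

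Eif2ak3 (chromosome 6, 70844515 to 70905245, plus strand), which encodes the eIF2 kinase PERK, had 54.0, 42.4, 44.0, 42.4, 43.4 and 45.6 CPM in triple samples 1 to 6, against 30.6 and 31.1 CPM in the double samples. The groups did not overlap, and the log2 fold change was 0.55 ± 0.16 (SE, adjusted p = 0.0711, edgeR). Over the 18 alternatives it stayed between 0.50 and 0.63, with an adjusted p of 0.00844 (DESeq2) to 0.360. Without double sample 1 it was 0.54. Ern1, which encodes IRE1, had 38.7 to 55.1 CPM (median 42.7) in the triple samples and 44.1 and 43.1 CPM in the double samples, a log2 fold change of 0.02 ± 0.18 (adjusted p = 0.944, edgeR). Xbp1, whose messenger RNA IRE1 splices, had 126 to 192 CPM (median 162.5) in the triple samples and 214 and 138 CPM in the double samples, a log2 fold change of -0.13 ± 0.22 (adjusted p = 0.724, edgeR). The genes of the 3 sensors thus differed among themselves in direction, with Atf6 lower, Eif2ak3 above both double samples and Ern1 near 0.

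None of the 8 ER chaperone and cofactor genes was called. Their median log2 fold change was 0.46, with 6 positive and 2 negative. The 2 negative ones, Herpud1 and Dnajb9, were high in double sample 1, and the others were not. Hspa5, which encodes the major ER chaperone BiP, had 713 to 1432 CPM (median 975) in the triple samples and 756 and 807 CPM in the double samples. Both double samples lay in the lower part of the triple range, and the log2 fold change was 0.38 ± 0.28 (adjusted p = 0.401, edgeR). Hsp90b1, which encodes the ER chaperone GRP94, had 777 to 1509 CPM (median 890.5) in the triple samples and 452 and 893 CPM in the double samples. Only double sample 1 lay below the triple range, and the log2 fold change of 0.55 ± 0.35 (adjusted p = 0.329, edgeR) was 0.14 without it. Per kilobase of exon, these had the highest means of the 34 genes in the triple samples, at 241 and 244 CPM per kb, and they averaged 185 and 167 CPM per kb in the double samples, where Atf4 also averaged 167 CPM per kb.

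Sdf2l1, a cofactor of BiP, had 20.8 to 67.7 CPM (median 37.1) in the triple samples, against 13.7 and 21.95 CPM in the double samples. Triple sample 4 alone lay below double sample 2, and the log2 fold change was 1.17 ± 0.43 (adjusted p = 0.121, edgeR). Manf, which encodes a secreted stress-protective ER protein, had 128.7 to 183 CPM in the triple samples, against 77.1 and 128.6 CPM in the double samples. The lowest triple value and the highest double value were nearly equal, and the log2 fold change was 0.53 ± 0.23 (adjusted p = 0.181, edgeR). Manf shares 4.14% of its exon length with Dcaf1 on the opposite strand, which had 800 to 1408 counts per sample. It shares 0.397% with Rbm15b on the same strand, which had 933 to 2113 counts. Creld2, which encodes an ER protein induced by stress, had 41.9 to 100 CPM in the triple samples and 23.2 and 53.9 CPM in the double samples. Dnajc3, which encodes the BiP cochaperone p58IPK, had 106.5 to 206 CPM in the triple samples and 131 and 125 CPM in the double samples, a log2 fold change of 0.15 ± 0.28 (adjusted p = 0.742, edgeR).

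Herpud1, which encodes a membrane protein of ER-associated degradation, had 53.0 to 150 CPM (median 79.8) in the triple samples, against 406 and 91.3 CPM in the double samples. Double sample 2 lay within the triple range, and the log2 fold change of -1.53 ± 0.50 (adjusted p = 0.0913, edgeR) was -0.09 without double sample 1. Dnajb9, which encodes the BiP cochaperone ERdj4, had 19.1 to 45.3 CPM in the triple samples, against 90.0 and 34.3 CPM in the double samples. Its log2 fold change of -1.06 ± 0.39 (adjusted p = 0.122, edgeR) was -0.20 without double sample 1. Double sample 1 was therefore high for these 2 genes and low for Hsp90b1, Creld2, Sdf2l1 and Manf, where it lay below all triple samples.

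**Figure D4:**
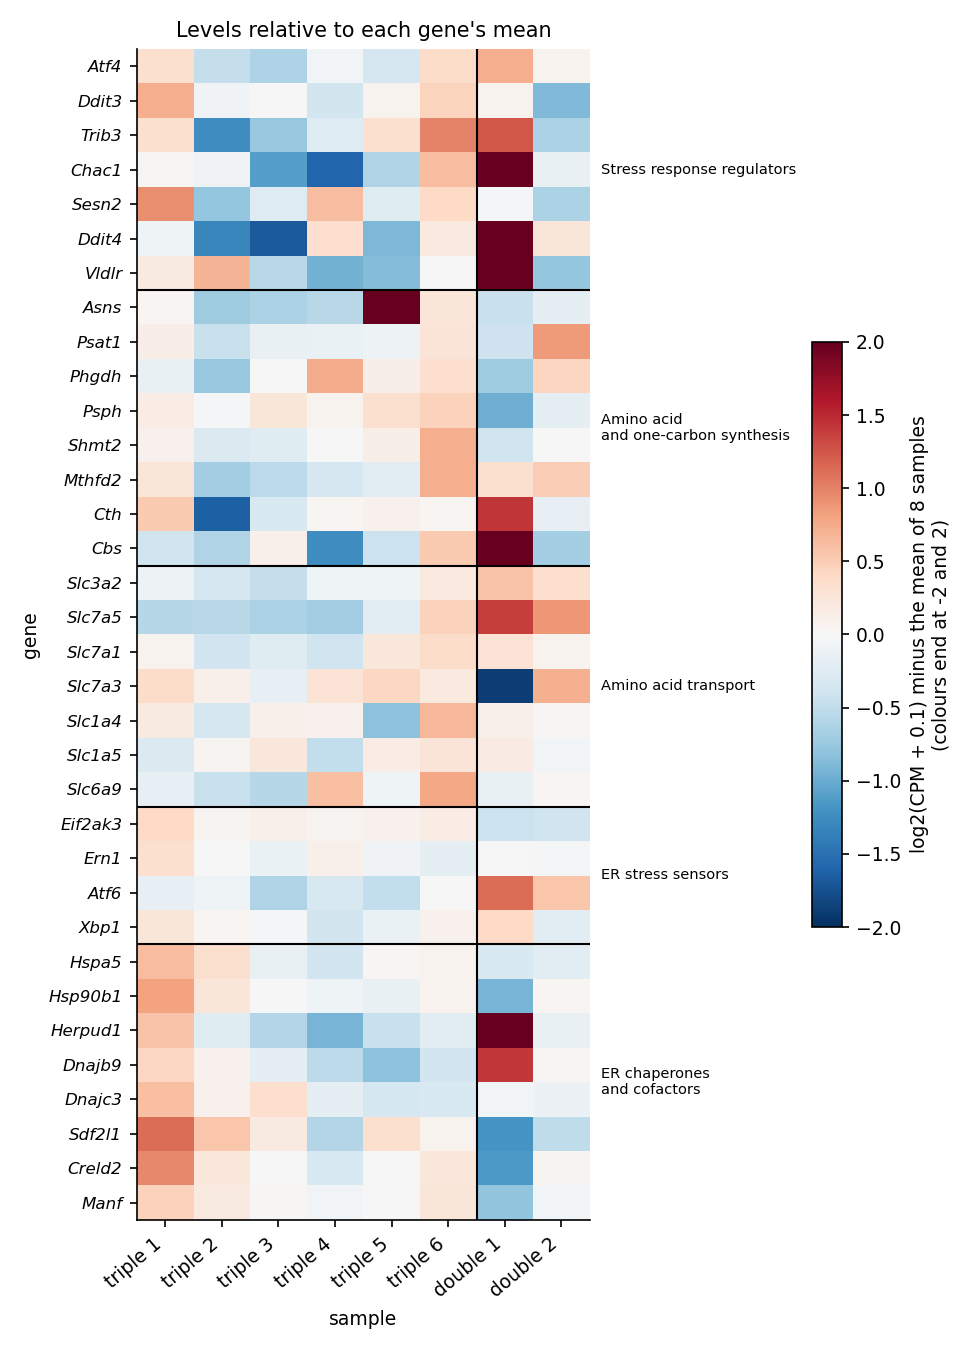
Level of each of the 34 genes in each sample, as log2(CPM + 0.1) minus the gene's mean over the 8 samples, with triple samples left of the line and double samples right of it. Colours end at -2 and 2. Triple sample 1 is red for all 8 chaperone genes, triple sample 6 has the highest triple level for 6 of the 7 transporter genes, and double sample 1 is dark red for Ddit4, Chac1, Vldlr, Herpud1 and Cbs.

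Within the triple group, the mean log2 level of the sensor and chaperone classes was highest in triple sample 1. That of the regulator, synthesis and transporter classes was highest in triple sample 6. For the regulators triple sample 1 was close, at 5.34 against 5.43 in triple sample 6, while triple samples 2 to 5 had 4.29 to 4.68. Triple sample 1 had the highest triple level for all 8 chaperone and cofactor genes and for 3 of the 4 sensor genes, whereas it was highest for 16.9% of all genes tested. The mean log2 level of the 8 chaperone genes, log2(CPM + 0.1), was 7.72 in triple sample 1, against 6.64 to 7.20 in the rest of the triple group and 6.90 and 6.91 in the double samples. Triple sample 4 was lowest for 5 of the 8, against 20.3% of all genes. Triple sample 6 led the amino acid genes instead. It was highest for 6 of the 7 transporter genes, 5 of the 8 synthesis genes and 3 of the 7 regulators, against 13.5% of all genes. The mean log2 level of the transporter genes was 5.65 in triple sample 6, against 4.97 to 5.18 in the rest of the triple group and 5.30 and 5.52 in the double samples. Triple sample 2 was lowest for 7 of the 8 synthesis genes, against 15.1% of all genes. Genes of a class are not independent, so these counts describe the samples and carry no test. The 10 plasma cell markers summed to 149 CPM in triple sample 1, 172 to 920 CPM in the rest of the triple group and 343 and 501 CPM in the double samples. Sdc1 made up 75.3 of the 149 CPM in triple sample 1. Igkc had 16.2 CPM there, against 11.4 to 279 CPM in the rest of the triple group. Jchain had 4.65 CPM there, against 2.85 to 79.6 CPM in the rest. The part of these markers in the chaperone levels was not tested. The summed level of the adult muscle markers was 15340 CPM in triple sample 2, against 131.5 to 6903 CPM in the others of its group. The part of the muscle content in the low synthesis genes of that sample was not tested.

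In wider lists of the same pathways the same samples led some lists and not others. Of the 20 aminoacyl-tRNA synthetase genes, which load amino acids onto tRNA and include ATF4 targets, triple sample 6 was highest for 12 and triple sample 2 lowest for 14. Of 24 other genes of the integrated stress response, triple sample 6 was highest for 11. Of 40 other ER folding, export and degradation genes, triple sample 1 was highest for 16 and triple sample 6 for 11. Of 30 other genes of amino acid metabolism and transport, triple samples 1 and 6 were each highest for 7 and triple sample 4 for 6. Triple sample 2 was lowest for 4 of the 30 (13.3%, against 15.1% of all genes), and triple sample 3 for 8.

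Between the groups, these wider lists held a few called genes, where 2.94% of all genes tested were called higher and 5.41% lower. Of the 24 other stress response genes, 0 were called higher and 3 lower, with a median log2 fold change of -0.38 against 0.02 over all genes. Stc2, which encodes the secreted glycoprotein stanniocalcin 2, had 4.62 to 9.67 CPM in the triple samples, against 41.0 and 22.8 CPM in the double samples. All triple samples were lower, with a log2 fold change (± SE) of -2.10 ± 0.33 (adjusted p = 0.00968, edgeR). Eif2b2, which encodes a subunit of the eIF2 exchange factor, averaged 36.7 ± 5.91 CPM in triple samples and 66.9 ± 11.8 CPM in double samples (SD, n = 6 and 2; log2 fold change -0.87, adjusted p = 0.0342, edgeR). Eif4ebp1, which encodes a repressor of translation and is an ATF4 target, had 64.2 to 132 CPM in the triple samples, against 331 and 131 CPM in the double samples, so that the groups overlapped, with a log2 fold change of -1.40 (adjusted p = 0.0442, edgeR). Of the 20 synthetase genes, Kars was called lower (183 ± 23.8 CPM in triple samples and 326 ± 89.1 CPM in double samples, log2 fold change -0.83, adjusted p = 0.0425, edgeR), and none was called higher. Of the 20, 15 were negative, and 5 lay below both double samples in all 6 triple samples, against 11.4% of all genes.

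Of 30 other genes of amino acid metabolism and transport, 1 was called higher and 6 lower, with a median log2 fold change of -0.50. Slc6a6, the taurine transporter gene, had 158 to 298 CPM in the triple samples, against 797 and 438 CPM in the double samples, a log2 fold change of -1.56 ± 0.28 (adjusted p = 0.0165, edgeR). Slc43a1, which encodes a further leucine transporter, LAT3, had 2.57 to 11.8 CPM in the triple samples, against 54.4 and 16.8 CPM in the double samples, a log2 fold change of -2.57 ± 0.55 (adjusted p = 0.0288, edgeR). All triple samples were below both double samples for these 2 transporter genes, as for Slc7a5. Got1, a cytosolic aspartate aminotransferase gene, had 32.7 to 72.3 CPM in the triple samples, against 220 and 79.5 CPM in the double samples (log2 fold change -1.63, adjusted p = 0.0437, edgeR). Glul, the glutamine synthetase gene, had 140 to 212 CPM in the triple samples, against 2254 and 141 CPM in the double samples. Its log2 fold change of -2.87 (adjusted p = 0.0348, edgeR) rested on double sample 1 and was 0.21 without it. The gene called higher was Bcat1, which encodes the cytosolic enzyme that transaminates leucine, isoleucine and valine and which is named after its values were seen. It had 65.6 to 150.5 CPM in the triple samples, against 11.01 and 38.7 CPM in the double samples, a log2 fold change of 2.17 ± 0.55 (adjusted p = 0.0461, edgeR).

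Of the 40 other ER genes, 29 had positive log2 fold changes, with a median of 0.27, and 12 lay above both double samples in all 6 triple samples, against 12.8% of all genes. By the test, 1 was called higher and 1 lower. Creb3l2, which encodes a membrane-bound transcription factor of the secretory pathway, had 120 to 182 CPM in the triple samples, against 64.6 and 94.8 CPM in the double samples, a log2 fold change of 0.99 ± 0.23 (adjusted p = 0.0381, edgeR). Wfs1, which encodes the ER membrane protein wolframin, had 4.67 to 28.2 CPM in the triple samples, against 225 and 107 CPM in the double samples, a log2 fold change of -3.27 ± 0.55 (adjusted p = 0.0128, edgeR). All triple samples were below both double samples for Wfs1. Without double sample 1, none of the 11 genes named here from the wider lists passed the test (adjusted p of 0.0907 for Stc2 to 0.783 for Glul, edgeR). Their log2 fold changes were then -1.63 for Stc2, -2.64 for Wfs1, -1.49 for Slc43a1, -1.07 for Slc6a6, -0.72 for Got1, -0.58 for Eif4ebp1, -0.69 for Eif2b2, -0.53 for Kars, 0.73 for Creb3l2 and 1.52 for Bcat1, beside that of Glul given above. These values were nearer to 0 than over 8 samples for all 11 genes, with the sign turned for Glul only.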

How the data were processed

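RNA was extracted with Trizol and a Zymo kit, enriched for messenger RNA and made into libraries with a NEBNext Ultra II kit, per the labels' protocols. The values used are whole-number counts of reads for 52636 genes, which the authors deposited as a table for each sample. HTSeq, DESeq2, mm10 and GRCm38 appear in the submitters' processing notes without their roles. The sources used here name no aligner, annotation release or strand setting, so reads of overlapping genes cannot be told apart. Symbols were found for 52403 genes, and 49870 had GENCODE M21 coordinates. Starts in the files count from 0 and are printed counted from 1.

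After filterByExpr and TMM scaling, genes were tested with the quasi-likelihood test of edgeR 4.0.16 (R 4.3.3), triple minus double, with no covariate and Benjamini-Hochberg adjustment over 17709 genes. The SE of a log2 fold change is its size divided by the root of the F statistic. CPM used the TMM factors and the counts of tested genes. The procedure was tested on simulated data. Alternatives were DESeq2 1.42.0, limma-voom (limma 3.58.1), RLE and upper-quartile scaling, omitting the filter, requiring 1 CPM in 2 or more samples, a robust dispersion fit, the description code as a term or a subset, and leaving out each sample. Double sample 1 shares the code SN930 with triple samples 4, 5 and 6, and the rest carry other codes. What the codes stand for is not stated. No 2 samples agreed within sampling noise (lowest median chi-square per gene 8.33). Total counts of 26847202 to 32082535 per sample set the counting error. The 34 genes, the wider lists, the marker lists and the tests were chosen with earlier results of these data known. All 34 genes are named, with Bap1, Nf2 and Cdkn2a, up to 4 called genes of smallest p from each wider list, and genes said to be chosen after their values were seen. Promoter windows are from RefSeq, GRCm38.p6.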

Additional observations from a re-analysis of the deposited data

Results flagged for a closer look

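Dixon's test at the 95% level was applied to the 6 triple samples for each of the 34 genes, and 7 genes had a sample that stood apart. Chance marks about 1 in 20 such groups where values are normally distributed, and the test was applied here to CPM without a log. The share marked among all genes tested was not computed, so 7 of 34 has no background beside it. Genes of one class are not independent. In triple sample 1, 4 genes of ER folding stood high: Hsp90b1 at 1509 CPM, Herpud1 at 150.1 CPM, Creld2 at 100.1 CPM and the sensor gene Eif2ak3 at 54.03 CPM. In triple sample 6, 2 genes of amino acid supply stood high: Shmt2 at 209.5 CPM and Slc7a5 at 187.1 CPM. In triple sample 5, Asns stood high at 368.1 CPM, with a gap to the next sample of 0.859 of the whole range. For Slc7a5 the sample that stood apart was the triple sample nearest to the double samples, and without it the log2 fold change was -1.71 with an adjusted p of 0.00823 (edgeR's quasi-likelihood test). Leaving out the sample nearest to the other group widens the difference by construction, so this fit adds no evidence. Without any other single triple sample the call of Slc7a5 did not hold.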

How the results depend on the processing

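The 3 calls rested on a small double group. DESeq2 called 3380 genes over all, with 3 of the 34 higher (Psph, Eif2ak3 and Sdf2l1) and 6 lower (Atf6, Slc7a5, Ddit4, Slc3a2, Chac1 and Herpud1). With the description code as a term 962 genes were called. Samples of code SN930 alone gave 5 of the 34 lower with 11.8% of all genes called, and samples of the other codes gave 1 called gene over all and 0 of the 34 lower. Leaving out each sample in turn gave 315 to 5579 called genes over all, 0 to 3 of the 34 higher and 0 to 8 lower. With 1 double sample left, that sample was assumed to vary like the triple samples. The lowest count of genes was without double sample 1 and the highest without double sample 2, and without single triple samples it was 635 to 930. Over all alternatives the 34 log2 fold changes kept their direction and side of the threshold in 537 cases, turned in 37, lost a call in 20 and gained one in 17. Only a called gene can lose a call, so the 20 losses all fell on the 3 called genes, over 18 alternatives each. Most of the 537 cases were genes not called over 8 samples that stayed uncalled. Limma-voom and the code term ended the call of Ddit4 (adjusted p = 0.115 and 0.0628).

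The following log2 fold changes turned sign. Ern1 was at -0.012 under DESeq2 and under RLE scaling and at -0.036 in code SN930. Slc1a4 was at 0.054 and Slc1a5 at 0.033 under upper-quartile scaling, which moved the median of all genes to 0.09. In code SN930, where that median was 0.12, Psat1 was at 0.46, Slc1a4 at 0.0089 and Dnajc3 at -0.21. In the other codes, Trib3 was at 0.22, Vldlr at 0.94, Asns at -0.23, Phgdh at -0.71, Shmt2 at -0.14, Cbs at 0.62, Slc7a3 at -0.62, Slc1a5 at 0.063, Slc6a9 at -0.44, Xbp1 at 0.30, Herpud1 at 0.13, Dnajb9 at 0.093 and Glul at 0.33. Leaving out single samples gave log2 fold changes of -0.14 to 0.059 for Slc1a5, -0.047 to 0.051 for Ern1, -0.21 to 0.11 for Slc1a4, -0.32 to 0.84 for Phgdh, -0.051 to 0.28 for Slc6a9, -1.15 to 0.72 for Trib3, -2.39 to 0.64 for Vldlr, -1.57 to 0.073 for Cth, -3.39 to 0.67 for Cbs, -0.52 to 2.25 for Slc7a3, -0.40 to 0.21 for Xbp1, -3.76 to 0.21 for Glul and -0.91 to 0.38 for Psat1. The cause was not tested. Cbs had no value under the filter of 1 CPM. No paired analysis was possible because the replicate numbers follow accession order and name samples only. Counts of 43 for Cbs over the triple samples limit its precision.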
